A study of Homo sapiens with 32 samples.

Results

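The genes of cholesterol and fatty acid synthesis were followed as a group of 34 named genes in U2OS cells, a human osteosarcoma line, that carried different forms of the tumour suppressor p53. The 34 were chosen by name from textbook pathways, with earlier results of these data known. They came from 35587 gene symbols in the deposited expression matrix, and all 34 were among the 16824 genes expressed highly enough to be tested. The 34 comprise 8 genes of the steps from acetyl-CoA to squalene, 10 from squalene to cholesterol and 8 of fatty acid and lipid synthesis. A further 6 encode SREBP, its regulators and a sterol carrier, and 2 encode cholesterol exporters.

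Poly-A RNA was sequenced from 32 libraries in 8 groups of 4, each library from its own plate. The cells had wild-type p53 on both alleles (WT), no p53 (KO), a single allele with the A347D change, in the domain through which p53 forms tetramers (HET), or A347D on both alleles (HOM). Each genotype received the vehicle DMSO or 20 µM etoposide for 24 h. Etoposide is a topoisomerase poison that breaks DNA and thereby activates p53. The KO, HET and HOM lines were edited with CRISPR-Cas9, and the WT columns are labelled PAR, read here as the unedited parental line. Each difference from WT therefore sets an edited line against that line. The labels do not say how many clones stood for each genotype, so an effect of genotype and an effect of the line cannot be told apart. The p-values measure the spread between plates of a line.

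Cells make cholesterol from acetyl-CoA through mevalonate and squalene, and they make fatty acids from the same precursor. Both routes are driven by the SREBP transcription factors, which SREBF1 and SREBF2 encode. SCAP escorts SREBP out of the endoplasmic reticulum when sterols are low, and the INSIG proteins hold the complex back when sterols are high. Surplus cholesterol leaves through ABCA1 and ABCG1, whose genes are known targets of the liver X receptors, the sensors of oxidized sterols. Wild-type p53 has been reported to restrain SREBP and to raise ABCA1, and mutant p53 has been reported to raise the mevalonate pathway in some tumours.

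Each library held 18.25 to 24.19 M reads counted to genes, except that the second HET library with etoposide held 8.05 M. CDKN1A, the p53 target that encodes the cell cycle inhibitor p21, had a mean of 4651 with DMSO and 34111 with etoposide in WT, and of 3063 and 8875 in KO. Of 10 markers of bone and mesenchyme, 9 reached 10 normalized counts in a library, and IBSP, a bone matrix gene, did not. That level was reached by 2 of 7 blood, 4 of 5 fat cell, 3 of 5 liver and 7 of 7 epithelial genes. The highest values were 36.4 in the blood list (PTPRC) and 16.4 in the fat cell list (CIDEC), but 14662 for SERPINA1 in the liver list and 2596 for KRT14 and 1873 for CLDN4 in the epithelial list. Among the 9 bone and mesenchyme markers BGLAP peaked at 26.0 and COL1A2 at 54.2, and the others at 207.7 (ALPL) or more. Libraries 2, 3 and 4 of HOM with DMSO stood apart from all others. In these 3 libraries mitochondrially encoded genes took 20.7% to 21.9% of the counts, against 7.87% to 15.2% in the 13 other DMSO libraries. Counts of called genes and leading changes that use HOM with DMSO are therefore given with and without these 3. All libraries share 1 estimate of spread, so the 3 also enter the SE of the other comparisons, and calls that change there without them are named. Without them the spread of the other groups stands in for that of the lone HOM library.

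Promoters of 29 of the 34 genes were found in the RefSeq table of GRCh38.p14, as windows from 250 bases before to 50 bases after a start of transcription, with more than 1 window for genes with several starts. The 4 printed here belong to genes on which the results turn. SREBF2, EBP and SCD fell with etoposide in WT, and the responses of EBP, SCD and ABCA1 differed between KO and WT. Capitals mark a match to the SREBP site TCACNCCAC or to the CCAAT box of the factor NF-Y, on either strand, so that CCAAT on the other strand reads ATTGG. Each window is written 5′ to 3′ along its gene.
SREBF2 (chr22:41832855-41833154, plus strand): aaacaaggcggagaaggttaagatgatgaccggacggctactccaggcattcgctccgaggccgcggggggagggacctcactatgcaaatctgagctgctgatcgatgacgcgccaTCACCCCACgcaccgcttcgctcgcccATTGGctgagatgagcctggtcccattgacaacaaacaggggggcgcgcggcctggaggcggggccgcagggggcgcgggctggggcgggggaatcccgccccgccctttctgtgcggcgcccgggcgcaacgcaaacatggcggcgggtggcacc
EBP (chrX:48521558-48521857, plus strand): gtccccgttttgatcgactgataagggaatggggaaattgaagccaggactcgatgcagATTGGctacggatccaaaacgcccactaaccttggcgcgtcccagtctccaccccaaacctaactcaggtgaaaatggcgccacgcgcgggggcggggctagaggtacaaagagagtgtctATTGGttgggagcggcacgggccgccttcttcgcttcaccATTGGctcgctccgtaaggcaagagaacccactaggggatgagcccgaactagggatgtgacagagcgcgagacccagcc
SCD (chr10:100346983-100347282, plus strand): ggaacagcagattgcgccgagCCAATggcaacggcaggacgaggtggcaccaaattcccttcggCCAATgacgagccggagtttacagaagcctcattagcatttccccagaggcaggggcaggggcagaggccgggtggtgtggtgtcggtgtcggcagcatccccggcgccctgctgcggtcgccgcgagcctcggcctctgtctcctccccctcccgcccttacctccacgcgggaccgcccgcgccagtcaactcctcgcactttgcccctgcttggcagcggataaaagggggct
ABCA1 (chr9:104928106-104928405, minus strand): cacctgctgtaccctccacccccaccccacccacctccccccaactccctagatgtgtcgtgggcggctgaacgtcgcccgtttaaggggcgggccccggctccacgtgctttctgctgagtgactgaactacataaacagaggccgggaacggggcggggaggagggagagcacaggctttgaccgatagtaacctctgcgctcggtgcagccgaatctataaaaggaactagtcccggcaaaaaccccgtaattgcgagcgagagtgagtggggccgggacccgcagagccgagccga
The match in SREBF2, TCACCCCAC, begins 133 bases before the start and was the single match to this motif among the 29 genes (3.45%, against 1.39% of 27305 genes). A CCAAT box lay in a window of 20 of the 29 (69.0%, against 39.7% of all genes). EBP held 3 of them, SCD 2 and ABCA1 none. The Sp1 motif GGGCGG was found in 28 of 29 (96.6%, against 48.3%) and the E-box CACGTG in 5 of 29 (17.2%, against 8.77%), among them ABCA1. A liver X receptor element, searched as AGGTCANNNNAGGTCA, was in no window of the 29 genes and in 0.0256% of all genes. Matches of different motifs shared no letters. These are descriptions of letters in a short window.

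In WT cells without etoposide the levels of the 34 genes spanned a wide range. Per kb of the longest transcript, FADS2, a desaturase of polyunsaturated fatty acids, was highest at 5109 normalized counts. FDPS, which makes farnesyl diphosphate, followed at 2808 and SCD, which makes monounsaturated fatty acids, at 2282 on the same scale. The lowest were ABCA1 at 3.80, INSIG2 at 45.6 and IDI1, an isomerase of the isoprenoid unit, at 50.3 per kb. SREBF1 and SREBF2 were close to each other at 1402 and 1642 per kb. The fewest reads recovered for any of the 34 in a library were 4, for ABCA1 in HOM with DMSO.

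**Figure D1:**
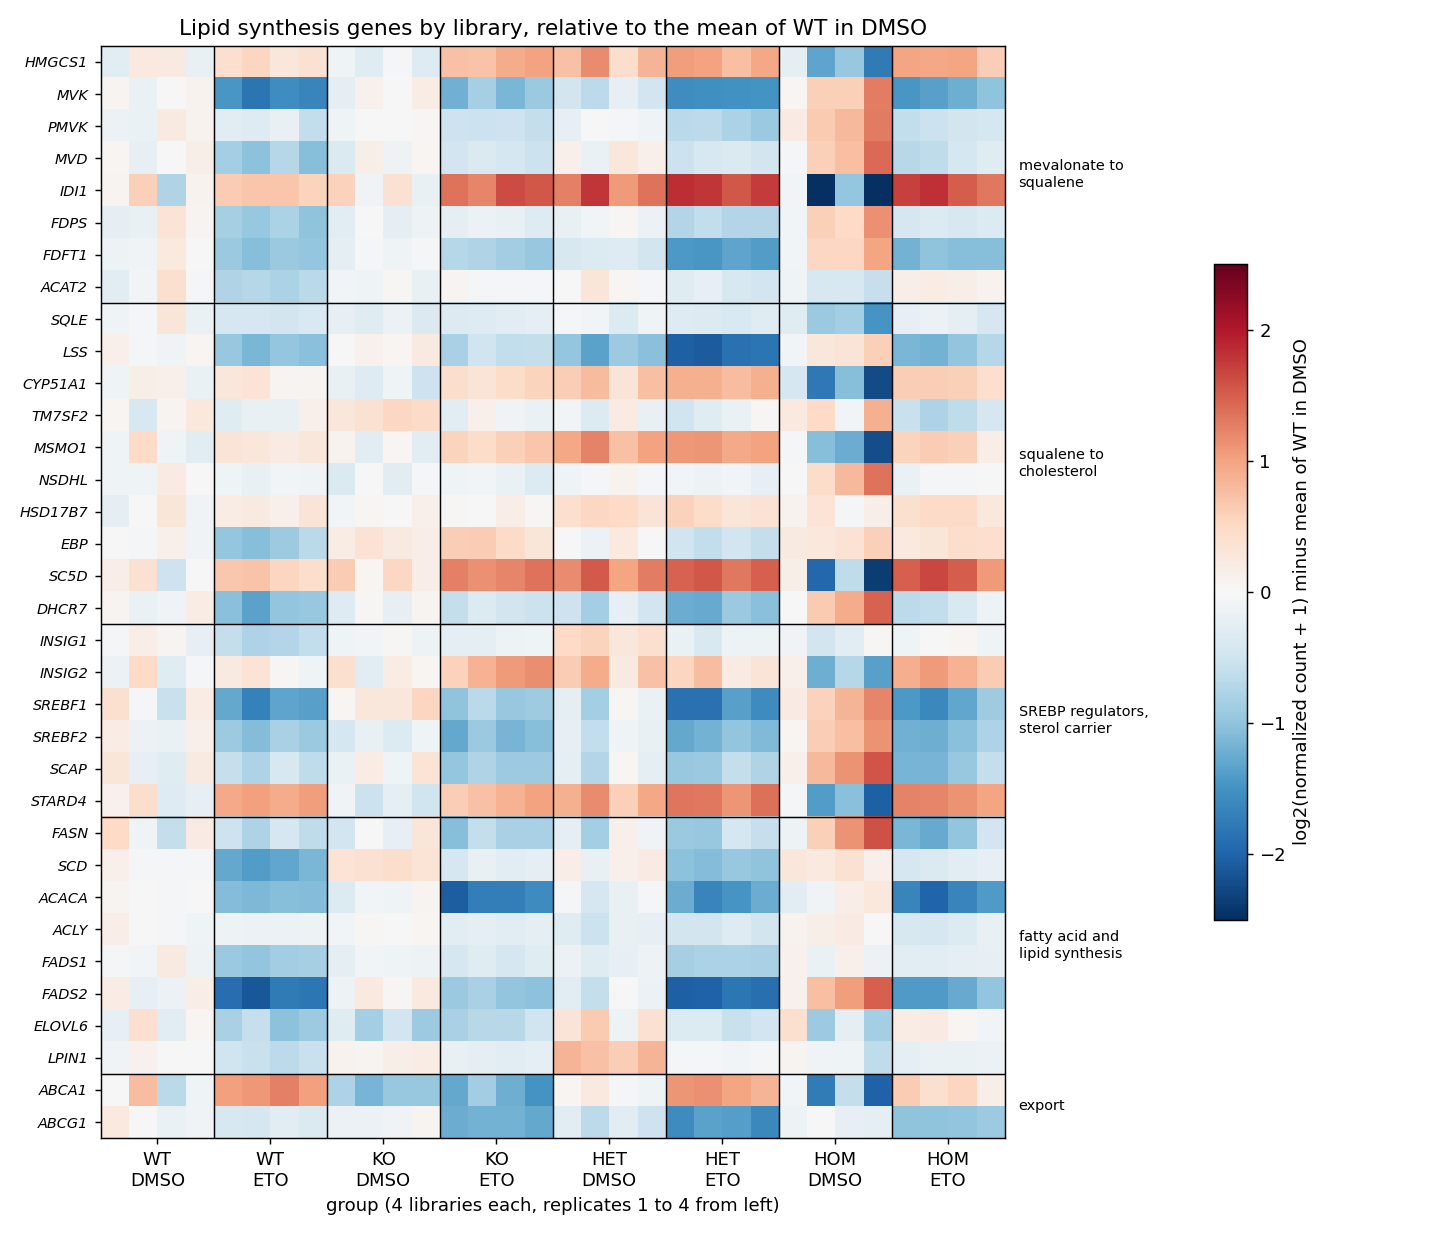
Levels of the 34 genes in each of the 32 libraries, as the log2 of the normalized count plus 1 minus the mean of WT with DMSO, with genes in rows by role and libraries in columns by group. Colours saturate at 2.5 in either direction. The etoposide columns are blue for most genes of fatty acid synthesis and for SREBF1 and SREBF2, and libraries 2 to 4 of HOM with DMSO differ from the first library of that group.

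Etoposide lowered a large part of the pathway in WT cells. Of the 34 genes, 17 fell and 2 rose by limma's test (adjusted p under 0.05 and at least a 1.5-fold change). Among all 16824 genes 14.9% fell and 20.1% rose by the same rule (35.0% in either direction). The median log2 change of the 34 was -0.59, against 0.05 for all genes tested. All 4 treated libraries lay below all 4 controls in 22 of the 34 and above them in 4. Among all genes tested these shares were 24.3% and 27.3%. When libraries 2 to 4 of HOM with DMSO were left out, 18 fell and 4 rose, with 37.9% of all genes called. FASN then joined the falls (-0.59 ± 0.21, adjusted p 0.0177), and IDI1 (0.64 ± 0.20, adjusted p 0.00655) and SC5D (0.59 ± 0.15, adjusted p 0.0016) the rises. In bulk RNA, fewer cells with a transcript and less of it per cell cannot be told apart.

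Among the 6 genes of SREBP, its regulators and a sterol carrier, 4 fell and 1 rose. SREBF1 had 7609, 5699, 3968 and 6579.9 normalized counts in the 4 WT libraries with DMSO and 2377, 1790.2, 2329 and 2269 with etoposide. All 4 treated libraries lay below all 4 controls, a log2 change of -1.41 ± 0.20 (SE) with an adjusted p of 1.51e-06 by limma. SREBF1 overlaps RAI1 on the opposite strand, and the strand used in counting is not stated. SREBF2 went from 10007, 7889.9, 7808 and 9532 to 4688, 4106, 4978 and 4602, also without overlap (log2 -0.93 ± 0.15, adjusted p 1.06e-05). INSIG1, itself a gene that SREBP switches on, fell from 620.5, 726, 674 and 561 to 425, 376, 386 and 421 (log2 -0.68 ± 0.10, adjusted p 9.35e-07). INSIG2 was at 0.12 and did not pass. SCAP passed with -0.59 ± 0.21, close to the fold minimum. Without replicate 1 or 4 of the DMSO libraries or replicate 2 or 4 of the etoposide libraries SCAP stood at -0.49, -0.52, -0.53 and -0.58 and no longer passed. STARD4, which carries sterols between membranes, rose from 546, 690.2, 404 and 438 to 982, 1037, 965 and 1049 (log2 0.99 ± 0.23, adjusted p 0.000894).

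Of the 8 genes from acetyl-CoA to squalene, 5 fell in WT. MVK, the kinase that phosphorylates mevalonate, had 1163, 982, 1124 and 1179.7 with DMSO and 402, 313, 378 and 353 with etoposide, the lowest control being more than 2 times the highest treated library. Its log2 change was -1.62 ± 0.16 (adjusted p 1.56e-09). FDFT1, the squalene synthase, changed by -0.97, MVD, a decarboxylase, by -0.91, FDPS by -0.89 and ACAT2, a cytosolic thiolase, by -0.73. HMGCS1, which makes the precursor of mevalonate, was at 0.40, IDI1 at 0.64 and the kinase PMVK at -0.35, and these 3 did not pass. On the opposite strand MVK overlaps MMAB, and ACAT2 overlaps SOD2 and TCP1, whose reads may not have been kept apart.

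Between squalene and cholesterol 3 of 10 genes fell, and none rose. DHCR7, which reduces the last precursor to cholesterol, changed by -1.08 ± 0.19, LSS, which closes the sterol rings, by -1.02 ± 0.12 and EBP, a sterol isomerase, by -0.90 ± 0.10. EBP had 1498, 1446, 1638 and 1400.3 normalized counts with DMSO and 761, 716, 797 and 931 with etoposide, with no overlap. The 7 others did not pass and lay between -0.42 for SQLE, the squalene epoxidase, and 0.59 for the desaturase SC5D. CYP51A1, MSMO1, NSDHL and HSD17B7, which strip methyl groups or work beside those enzymes, were at 0.19, 0.27, -0.11 and 0.22. TM7SF2, a sterol reductase, was at -0.13. HSD17B7 has a transcribed pseudogene, HSD17B7P2, whose mean over all libraries was 42.1 against 275.6 for the gene, so that some of its reads may be shared.

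Fatty acid synthesis fell in 5 of 8 genes. FADS2 had 20906, 16006, 16529 and 20743 with DMSO and 4915, 4209.6, 5401 and 5283 with etoposide, the strongest fall of the 34 at -1.90 ± 0.18 (adjusted p 6.83e-10). SCD had 13328, 12004, 11877 and 11745 with DMSO and 5025, 4668, 4989.5 and 5532 with etoposide, with every treated library far below every control (log2 -1.28 ± 0.08, adjusted p 2.95e-13). ACACA, the carboxylase that commits acetyl-CoA to fatty acids, had 1955, 1864, 1827 and 1851 with DMSO and 882, 859, 895 and 889 with etoposide (log2 -1.09 ± 0.13, adjusted p 4.26e-08). In all 3 genes the groups were clear of each other. FADS1, whose transcript overlaps that of FADS2 on the opposite strand, changed by -0.90 and the elongase ELOVL6 by -0.83. FASN, the fatty acid synthase, was at -0.59 ± 0.27 with an adjusted p of 0.0705 and did not pass. LPIN1, a phosphatidate phosphatase, was at -0.57 and ACLY, which supplies acetyl-CoA, at -0.14, both short of the fold minimum.

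**Figure D2:**
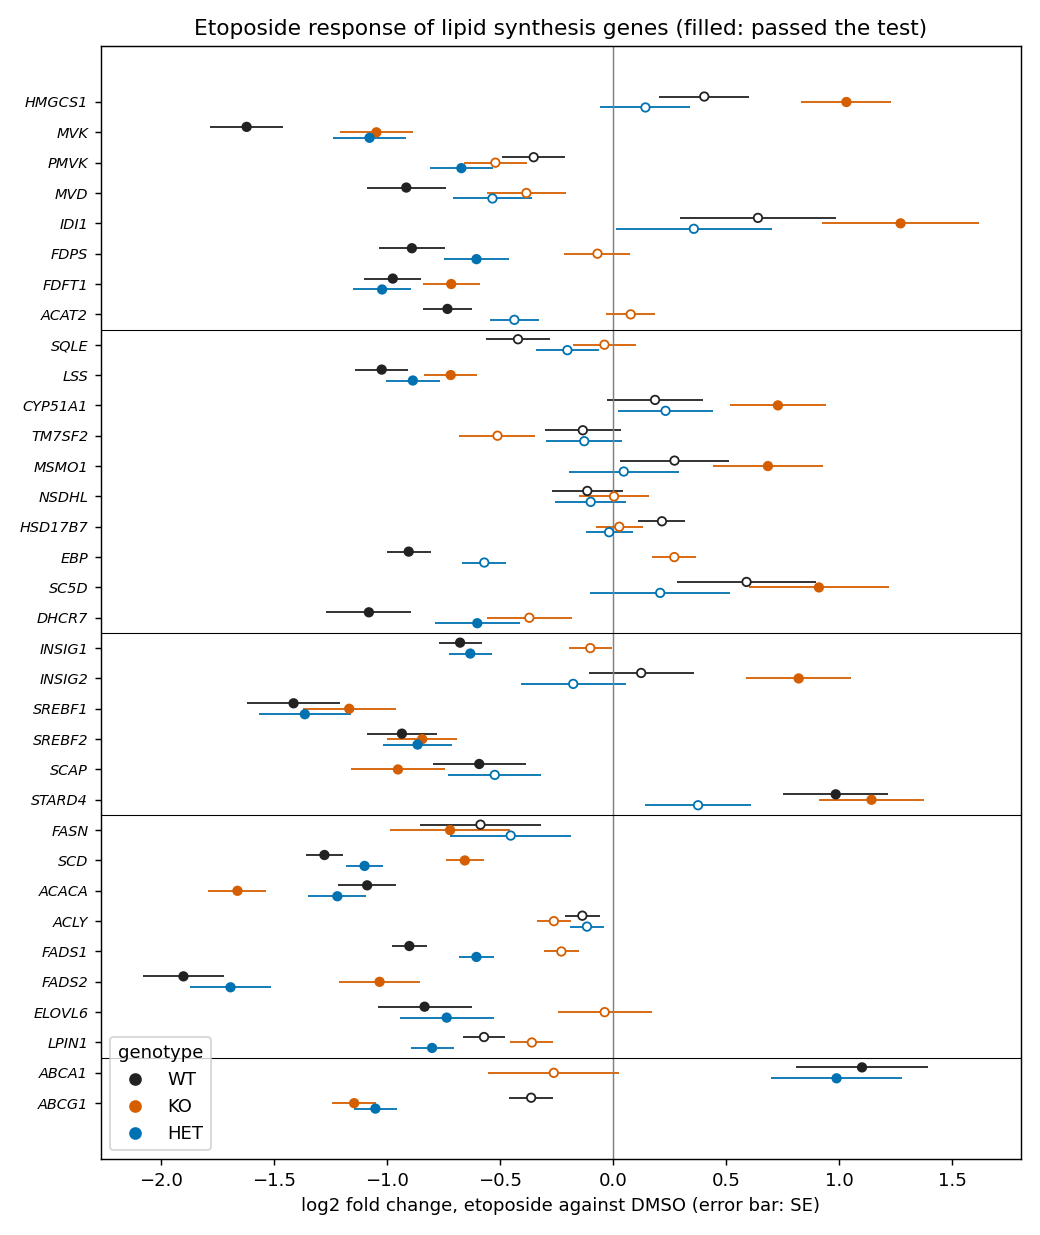
Log2 fold change of each of the 34 genes with etoposide against DMSO in WT, KO and HET cells, with the SE of the fit as bars and filled points for changes that passed the test. EBP, ACAT2 and FDPS lie well left of 0 in WT and close to 0 or to its right in KO, and ABCA1 lies right of 0 in WT and HET only.

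In cells without p53 the fall was present in part. Of the 34 genes 11 fell and 7 rose in KO, against 14.5% and 18.1% of all genes (32.6% together), and the median was -0.26 against 0.05 for all genes. SREBF1 went from 5977, 7081, 7033 and 8462 to 2879, 3656, 3008 and 3127 (log2 -1.17 ± 0.20, adjusted p 3.31e-05). SREBF2 went from 6446, 7690.1, 6921 and 8173 to 3586, 4604, 3925 and 4164 (-0.84 ± 0.15). Both fell without overlap, as in WT. In KO 17 of the 34 had every treated library below every control and 7 above, against 26.4% and 27.8% of all genes. The largest fall was in ACACA, from 1480.4, 1782, 1742 and 1959 to 446, 562, 566 and 631 (-1.66 ± 0.13, adjusted p 1.54e-11). MVK changed by -1.05, FADS2 by -1.03, SCAP by -0.95, FASN by -0.72, LSS by -0.72, FDFT1 by -0.72 and SCD by -0.66. INSIG1 was nearly level, with 596, 613, 652 and 586 and then 548, 553, 588 and 593 (-0.10 ± 0.10, adjusted p 0.403). IDI1 rose from 241, 151, 209 and 141 to 417, 378, 502 and 472 (1.27 ± 0.35, adjusted p 0.0035), and HMGCS1 from 1053, 921, 1111 and 906 to 1891, 1862, 2142 and 2275 (1.03 ± 0.20, adjusted p 0.000107). STARD4 rose from 476, 349, 429.5 and 361 to 777, 840.5, 925 and 1022 (1.14 ± 0.23, adjusted p 0.000208). SC5D, INSIG2, CYP51A1 and MSMO1 were the other rising genes, at 0.91, 0.82, 0.73 and 0.69. All 7 rising genes have transcripts of under 42% G+C. FASN no longer passed without replicate 2 or 4 of the DMSO libraries or 1 of the etoposide libraries (-0.69, -0.59 and -0.64). The same held for MSMO1 without replicate 2 or 4 of DMSO or 4 of etoposide (0.63, 0.63 and 0.65), and for SC5D without replicate 2 of DMSO (0.81).

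In cells with a single mutant allele 16 of the 34 genes fell and 1 rose, against 12.7% and 17.5% of all genes (30.2% together), with a median of -0.55 against 0.01 for all genes. FADS2 had 15388, 12163, 18438 and 16714 with DMSO and 4442, 4507, 5271 and 5010.4 with etoposide (-1.69 ± 0.18, adjusted p 7.62e-09). SREBF1 had 4919, 3236, 5933 and 5200.0 with DMSO and 1587, 1595, 2258 and 1958 with etoposide (-1.36 ± 0.20, adjusted p 2.98e-06). ACACA had 1809, 1402, 1639 and 1799 with DMSO and 794, 597, 671 and 797 with etoposide (-1.22 ± 0.13, adjusted p 5.9e-09). None of these 3 genes had an etoposide library as high as its lowest control. Of the 34, 19 lay wholly below their controls and 1 wholly above, against 24.7% and 25.4% of all genes. SREBF2 (-0.86), INSIG1 (-0.63), SCD (-1.10), MVK (-1.08), FDFT1 (-1.02) and LSS (-0.89) also fell, and so did LPIN1 (-0.80), ELOVL6 (-0.74) and PMVK (-0.67). INSIG1 went from 909, 945, 783 and 843 to 576, 496, 588 and 585 and SREBF2 from 7613, 5710.1, 8169 and 7711 to 3584, 3861, 4436 and 4058. Falls near the fold minimum depended on single libraries: DHCR7 without replicate 3 of DMSO or 1 or 2 of etoposide (-0.50, -0.56 and -0.55), FADS1 without replicate 4 of DMSO (-0.58), FDPS without replicate 3 of DMSO (-0.56) and INSIG1 without replicate 2 of etoposide (-0.57).

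For HOM the count depends on which DMSO libraries stand for the control. With all 4, 16 genes fell and 9 rose, against 28.5% and 37.2% of all genes (65.6% together). Without libraries 2 to 4 of HOM with DMSO, 13 fell and 6 rose, with 38.2% of all genes called in either direction. SREBF1 had 6696, 8629, 10398 and 13568 with DMSO and 2135, 1907, 2354 and 3149.6 with etoposide (-2.02 ± 0.20, and -1.51 ± 0.29 against the first library alone). FADS2 had 19769.6, 30984, 37761 and 51682 with DMSO and 6929, 6932, 7691 and 9253 with etoposide (-2.11 ± 0.18 and -1.37 ± 0.19). MVK had 1142, 1669.9, 1686 and 2701 with DMSO and 403, 432, 473 and 553 with etoposide (-1.89 ± 0.16 and -1.30 ± 0.17). In these 3 genes the first DMSO library was the lowest of its group and still above every etoposide library. IDI1 had 154, 25.4, 82.4 and 27.6 with DMSO and 529, 575, 459 and 401 with etoposide (3.12 ± 0.35 and 1.65 ± 0.31), SC5D 407, 92.6, 235 and 70.1 with DMSO and 1036, 1161, 1052 and 768 with etoposide (2.64 ± 0.31 and 1.29 ± 0.24). STARD4 had 491, 193, 245 and 123 with DMSO and 1199, 1189, 1101 and 1006 with etoposide (2.27 ± 0.23 and 1.19 ± 0.21). Here the first DMSO library was the highest of its group and still below every etoposide library. With all 4 controls 19 of the 34 lay wholly below and 9 wholly above, against 28.2% and 31.6% of all genes. SREBF2 had 9117, 13462, 14710.1 and 19107 with DMSO and 3800.5, 3735, 4234 and 5105 with etoposide (-1.70 ± 0.15 and -1.12 ± 0.18). INSIG1 had 601, 469, 533 and 652 with DMSO and 599, 634, 665 and 597 with etoposide and did not pass (0.16 ± 0.10, and 0.05 ± 0.12 against the first library).

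Without etoposide KO and WT differed in few of the 34 genes and in few of all genes. KO against WT in DMSO gave 2 lower and none higher, against 5.59% and 2.75% of all genes (8.35% together). ABCA1 had 37.2, 64.6, 23.2 and 34.7 normalized counts in WT and 21.4, 16.1, 19.0 and 18.9 in KO (-0.96 ± 0.29, adjusted p 0.0265). ELOVL6 had 322, 493, 307 and 385 in WT and 302, 206, 265 and 197 in KO (-0.63 ± 0.21, adjusted p 0.0427). The 2 groups did not overlap in either gene, but the lowest WT library lay just above the highest KO library in both. Of the 34, KO lay wholly below WT in 2 and wholly above in 3, against 10.5% and 6.96% of all genes. Neither gene passed without replicate 2 of WT (-0.70 for ABCA1 and -0.49 for ELOVL6), nor without replicate 2, 3 or 4 of KO (-0.89, -0.96 and -0.96, and -0.56, -0.68 and -0.54). ELOVL6 was also lost without replicate 4 of WT (-0.61). SCD was at 0.37 ± 0.08 (adjusted p 0.00225), under the fold minimum, and SREBF1 and SREBF2 were at 0.29 and -0.27.

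HET cells differed from WT in DMSO by 8 higher and 1 lower, against 16.1% and 16.4% of all genes (32.5% together). LSS had 4822, 4240.1, 4073 and 4547 in WT and 2241, 1752, 2335 and 2134 in HET (-1.07 ± 0.12, adjusted p 2.39e-08). IDI1 had 169.7, 242, 95.6 and 171 in WT and 389, 559, 338 and 416 in HET (1.37 ± 0.35, adjusted p 0.00202), and SC5D 408, 474, 254 and 365 in WT and 826, 1064, 724 and 893 in HET (1.24 ± 0.31, adjusted p 0.00179). All 4 HET libraries lay above the 4 WT libraries in both genes. MSMO1 (0.99), STARD4 (0.91), HMGCS1 (0.80), LPIN1 (0.76), INSIG2 (0.63) and CYP51A1 (0.62) were the other higher genes. INSIG2, the one gene whose groups overlapped, stood at 0.58, 0.53 and 0.62 without replicate 1, 3 or 4 of WT and at 0.63, 0.54 and 0.60 without replicate 1, 2 or 4 of HET, and no longer passed. CYP51A1 was lost without replicate 4 of WT or 2 or 4 of HET (0.57, 0.57 and 0.58).

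HOM against WT in DMSO gave 10 higher and 9 lower with all libraries (20.0% and 27.6% of all genes, 47.6% together) and none of 34 with the first HOM library alone (4.54% of all genes called). SCAP had 6193, 9894, 12231 and 16773 in HOM against 6963, 4893, 4553 and 6569 in WT (0.91 ± 0.21 with all, 0.13 ± 0.25 with the first), and FADS2 was at 0.85 ± 0.18 and 0.10 ± 0.19. CYP51A1 had 559.8, 217, 356 and 157 against 691, 827, 810.1 and 665 (-1.37 ± 0.21 and -0.41 ± 0.16), and IDI1 was at -1.54 ± 0.35 and -0.06 ± 0.31. The first HOM library sat within the WT range in SCAP, and libraries 2 to 4 were on the same side of it in all 4 genes. Leaving out replicate 4 of HOM alone brought the count from 19 to 11. HOM against KO in DMSO likewise went from 19 (11 higher, 8 lower, against 22.6% and 28.6% of all genes, 51.2% together) to 11 without replicate 4 and to 1 of 34 without libraries 2 to 4, where 8.66% of all genes were called. SREBF2 was at 0.91 ± 0.15 and FASN at 0.89 ± 0.27 in that comparison, and IDI1 and SC5D at -1.70 ± 0.35 and -1.54 ± 0.31. With the first library alone these were 0.33, -0.03, -0.23 and -0.18. The 1 gene that passed was ELOVL6 (1.04), a call that rests on 1 HOM library. ELOVL6 had 491, 197, 314 and 204 in HOM and 302, 206, 265 and 197 in KO. In the authors' deposited table, with all libraries, it was at 0.32 (adjusted p 0.216). FASN had 15739, 25946, 37524 and 51831 in HOM and 12251, 17238, 14979.8 and 21021 in KO, the first HOM library lying inside the KO range.

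With etoposide, KO against WT gave 8 higher and 3 lower of the 34, against 11.7% and 15.0% of all genes (26.7% together). EBP had 2273, 2322, 2071 and 1850.3 in KO and 761, 716, 797 and 931 in WT, 2.66 times as much (1.41 ± 0.10, adjusted p 1.2e-12). SCD had 9157, 10784, 10036 and 10256 against 5025, 4668, 4989.5 and 5532 (0.99 ± 0.08, adjusted p 7.87e-11). Both genes were higher in every KO library than in any WT library. Wholly higher in KO were 19 of the 34 and wholly lower 4, against 24.2% and 27.9% of all genes. FADS2 (0.96), INSIG2 (0.80), ACAT2 (0.73), FDPS (0.67), DHCR7 (0.60) and MVK (0.60) were also higher in KO. IDI1 (0.80, adjusted p 0.00126) and SC5D (0.66, adjusted p 0.000737) passed too once libraries 2 to 4 of HOM with DMSO were left out, giving 10 higher and 3 lower, with 29.3% of all genes called. ABCA1, ABCG1 and ACACA were lower, at -2.32, -0.86 and -0.69. INSIG1 was at 0.50 ± 0.10 and SREBF1 at 0.53 ± 0.20, both under the fold minimum. Without replicate 2 of WT or of KO, DHCR7 (0.51 and 0.55) and MVK (0.53 and 0.53) no longer passed, and MVK also without replicate 4 of KO (0.57).

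HOM against WT with etoposide gave 11 higher and 2 lower, against 14.0% and 14.7% of all genes (28.6% together). Neither group holds the divergent libraries, but leaving these out of the shared spread gave 11 higher and 3 lower, with 31.1% of all genes called and ABCA1 added. EBP had 1772, 1852, 2036 and 2007 in HOM (1.26 ± 0.10, adjusted p 1.05e-11) and SCD 9156, 9473, 10009.5 and 10651 (0.96 ± 0.08, adjusted p 1.41e-10), again with every library above the WT libraries given for these genes. IDI1 (0.95), ELOVL6 (0.92), ACAT2 (0.88), SC5D (0.85), INSIG2 (0.75), FADS1 (0.65), DHCR7 (0.64), FADS2 (0.63) and INSIG1 (0.63) were higher as well. ACACA had 599, 466, 594 and 705 against 882, 859, 895 and 889 (-0.59 ± 0.13) and ABCG1 was at -0.62 ± 0.10. HOM lay wholly above WT in 17 of the 34 and wholly below in 5, against 25.0% and 28.0% of all genes. SC5D no longer passed without replicate 3 or 4 of WT (0.83 and 0.79) or 1, 2 or 3 of HOM (0.83, 0.77 and 0.82), nor IDI1 without replicate 1 or 4 of WT (0.94 and 0.92) or 1 or 2 of HOM (0.91 and 0.87). DHCR7 and FADS2 were lost without replicate 2 of WT (0.55 and 0.56) or 4 of HOM (0.53 and 0.54), and ACACA without replicate 3 of WT (-0.58) or 2 of HOM (-0.48). The KO and HOM comparisons share the WT libraries, so their resemblance is no separate evidence.

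Set against each other directly, HOM and KO with etoposide differed in 2 of the 34 genes, both higher in HOM, against 7.47% of all genes higher and 4.67% lower (12.1% together). These were ABCA1 (1.65 ± 0.29, adjusted p 9.83e-05) and ELOVL6 (0.76 ± 0.21, adjusted p 0.00854). ELOVL6, which lengthens saturated fatty acids, had 421, 427, 381 and 353 in HOM and 212, 229, 229.7 and 262 in KO, without overlap. EBP was at -0.15 ± 0.10 and SCD at -0.03 ± 0.08 in the same comparison, and neither passed. HET against WT with etoposide gave 4 higher and 2 lower, against 10.1% and 13.2% of all genes (23.3% together). LSS had 1066, 1037, 1216 and 1248 in HET and 2276, 2010.0, 2260.0 and 2144 in WT (-0.93 ± 0.12, adjusted p 4.43e-07), and the difference was of the same sign and about the same size as with DMSO. The other lower gene was ABCG1 (-1.12 ± 0.10). The 4 higher genes were IDI1, with 580.0, 559.8, 471 and 539.6 in HET and 250.3, 261, 260.4 and 236 in WT (1.09 ± 0.35), SC5D (0.86 ± 0.31), MSMO1 (0.76) and CYP51A1 (0.67). SC5D had 1021, 1068, 908 and 1026 against 582, 603, 534 and 494, but no longer passed without replicate 3 or 4 of WT (0.85 and 0.81) or 1, 2 or 4 of HET (0.85, 0.83 and 0.85).

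**Figure D3:**
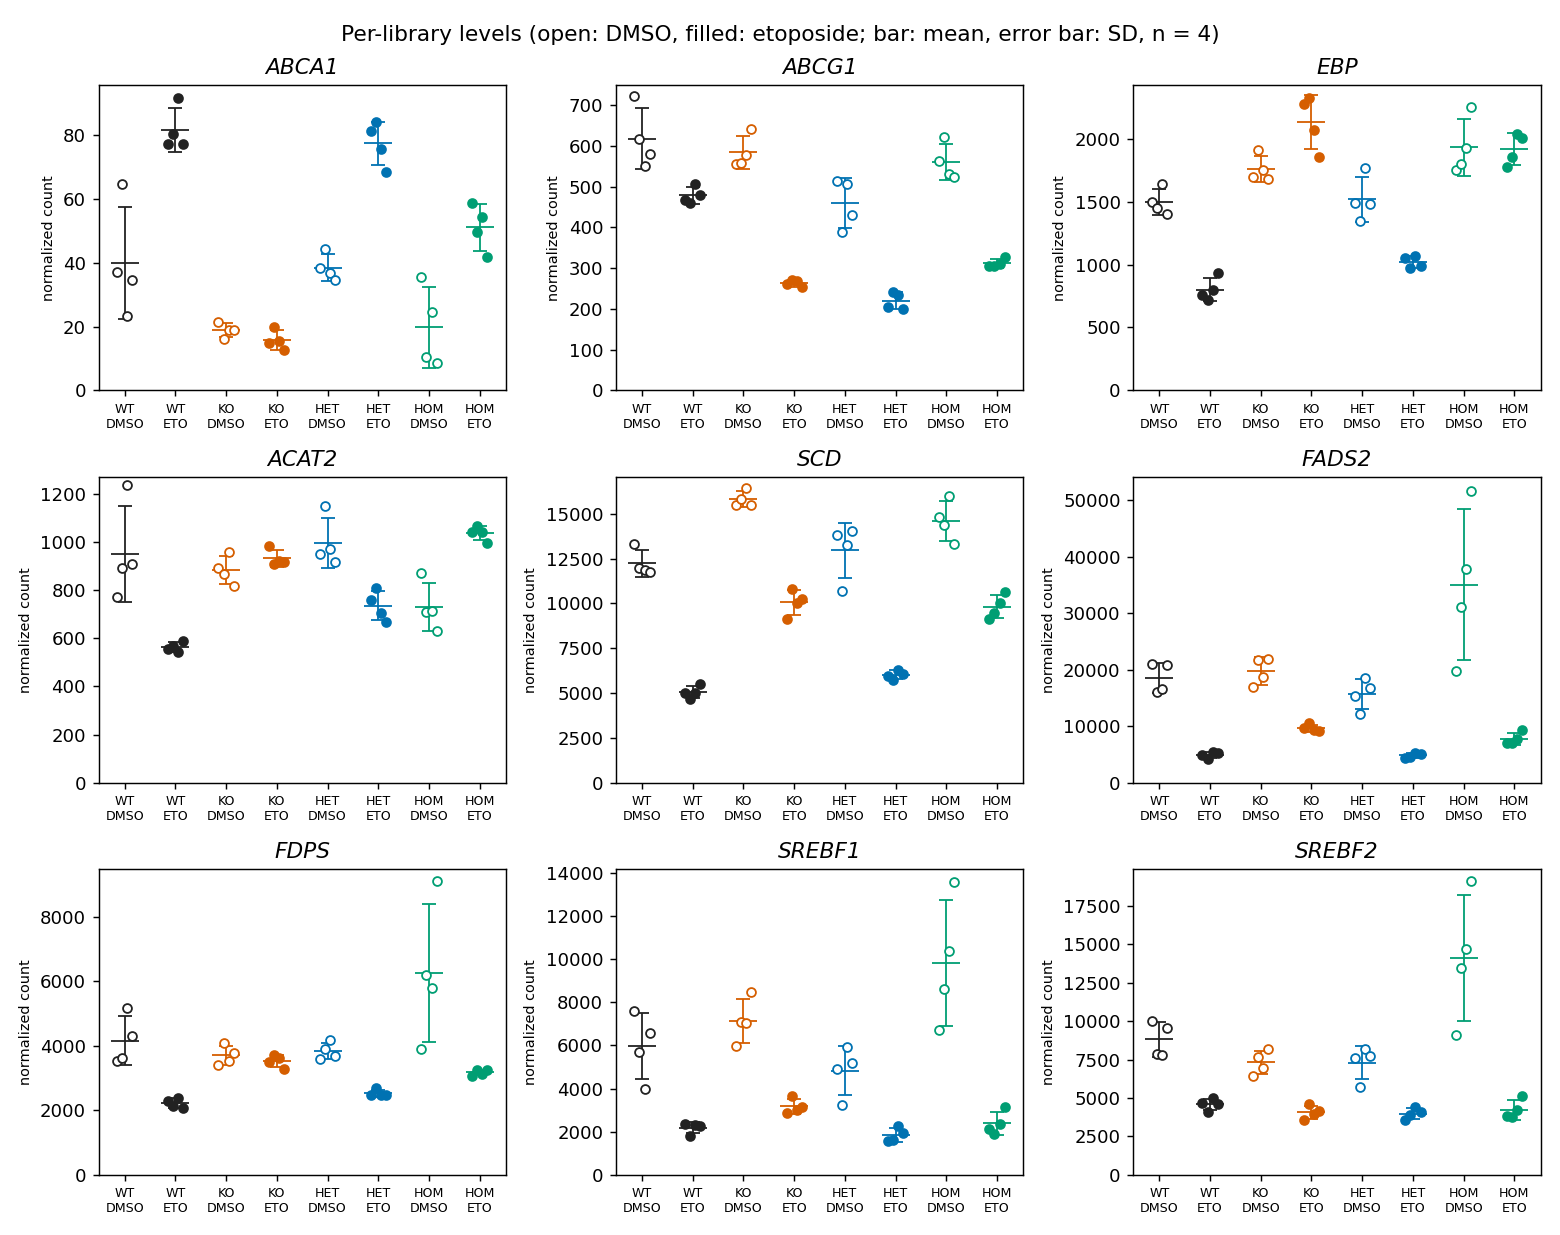
Normalized counts of 9 genes in each of the 32 libraries, with the mean and SD of each group (n = 4), open points for DMSO and filled points for etoposide. By group mean, EBP, ACAT2 and SCD with etoposide are lowest in WT and higher in KO and HOM, and ABCA1 with etoposide is lowest in KO.

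Whether a response depends on genotype was tested as the difference between 2 responses. Of the 34 genes 6 had a higher and 2 a lower log2 response in KO than in WT, against 7.11% and 8.13% of all genes (15.2% together). The 6 were EBP (1.18 ± 0.14, adjusted p 2.12e-07), FADS2 (0.87 ± 0.26, adjusted p 0.0156), FDPS (0.82 ± 0.21, adjusted p 0.00461), ACAT2 (0.81 ± 0.15, adjusted p 0.000242), FADS1 (0.67 ± 0.11, adjusted p 3.45e-05) and SCD (0.62 ± 0.12, adjusted p 0.000272). EBP had 1695, 1906, 1751 and 1683 in KO with DMSO and 2273, 2322, 2071 and 1850.3 with etoposide, so that 3 of the 4 KO libraries with etoposide lay above every KO control, while every WT library with etoposide lay below every WT control. ACAT2 was at 952 ± 199 and 564 ± 19.4 in WT and at 885 ± 58.0 and 933 ± 34.8 in KO (SD, n = 4). FDPS was at 4151 ± 758 and 2217 ± 148 in WT and at 3698 ± 306 and 3521 ± 179 in KO. SCD and FADS2 still fell in KO, from 15507, 15809.7, 16465 and 15499 to 9157, 10784, 10036 and 10256 and from 16829.7, 21666, 18666 and 21925 to 9645, 10467, 9272 and 9101, but by less than in WT. SCD dropped under the fold minimum without replicate 1 of WT with DMSO (0.58) or 2 of WT with etoposide (0.58). For SREBF1 (0.25 ± 0.29, adjusted p 0.65) and SREBF2 (0.09 ± 0.22, adjusted p 0.85) no difference in response was called, which does not show that the responses were equal. Leaving out libraries 2 to 4 of HOM with DMSO gave 10 genes with a higher and 2 with a lower response in KO, with 20.3% of all genes called. The 4 added genes were ELOVL6 (0.80, adjusted p 0.00583), DHCR7 (0.71, adjusted p 0.00315), INSIG2 (0.70, adjusted p 0.0353) and HMGCS1 (0.63, adjusted p 0.0103).

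The response of HET differed from WT in 1 gene, ABCG1 (lower in HET, against 1.78% of all genes lower, 2.97% higher and 4.75% together). STARD4 was lower as well when libraries 2 to 4 of HOM with DMSO were left out (-0.61 ± 0.19, adjusted p 0.0324), with 8.07% of all genes called. The response of HOM differed from WT in 15 genes upward and 8 downward with all libraries, against 26.2% and 23.9% of all genes (50.2% together). IDI1 (2.48 ± 0.49) and SC5D (2.05 ± 0.44) were highest, and SCAP (-1.28 ± 0.29) and FASN (-1.18 ± 0.38) lowest. Without libraries 2 to 4 of HOM with DMSO these 4 were 1.01 ± 0.37, 0.69 ± 0.29, -0.51 ± 0.29 and -0.26 ± 0.39, and 8 genes were called upward and none downward, with 18.4% of all genes called. The 8 were EBP (1.03), IDI1, ACAT2 (0.98), CYP51A1 (0.78), INSIG1 (0.73), HMGCS1 (0.70), SCD (0.68) and FDPS (0.59). EBP in HOM had 1752, 1795, 1924 and 2251 with DMSO and 1772, 1852, 2036 and 2007 with etoposide, 2 sets that overlap.

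ABCA1, which moves cholesterol to apolipoproteins, had 37.2, 64.6, 23.2 and 34.7 in WT with DMSO and 77.3, 80.3, 91.4 and 77.1 with etoposide, a rise of 1.10 ± 0.29 (adjusted p 0.00246). In HET it rose from 38.5, 44.2, 36.7 and 34.5 to 81.3, 84.1, 75.5 and 68.5 (0.99 ± 0.29, adjusted p 0.00647). In KO it had 21.4, 16.1, 19.0 and 18.9 with DMSO and 14.8, 20.0, 15.4 and 12.6 with etoposide (-0.26 ± 0.29, adjusted p 0.477), which did not pass. All WT and HET libraries with etoposide were higher than every library of their own controls, and every KO library was below every WT library of the same treatment. In HOM ABCA1 had 35.6, 10.5, 24.5 and 8.49 with DMSO and 58.6, 49.5, 54.5 and 41.7 with etoposide, a rise of 1.53 ± 0.29 with all controls and 0.50 ± 0.31 (adjusted p 0.198) against the first alone, which did not pass. Against WT, KO with etoposide was at -2.32 ± 0.29 (adjusted p 1.6e-07) and HOM at -0.67 ± 0.29 (adjusted p 0.0654, not passing). The HOM difference passed without libraries 2 to 4 of HOM with DMSO (-0.67 ± 0.20, adjusted p 0.00575), and in the authors' deposited table it was -0.67 (adjusted p 0.0102). The difference between the responses of KO and WT was -1.36 ± 0.41 (adjusted p 0.0183), and -1.14 without replicate 3 of WT with DMSO, where it no longer passed. ABCA1 is the least abundant of the 34 per kb, and its values rest on few reads.

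ABCG1, which moves cholesterol to lipoprotein particles, had 723, 616, 551 and 581 in WT with DMSO and 467, 461, 506 and 480.0 with etoposide, a difference of -0.36 ± 0.10 that was under the fold minimum. In KO it fell from 557, 558, 579 and 643 to 260.0, 270.0, 269.5 and 253 (-1.15 ± 0.10, adjusted p 9.22e-11), and in HET from 513, 388, 507 and 430.1 to 206, 242, 235 and 199 (-1.05 ± 0.10, adjusted p 3.89e-10). HOM had 562, 621, 531 and 525 with DMSO and 306, 304, 309 and 327 with etoposide (-0.84 ± 0.10, and -0.85 ± 0.14 against the first library). WT kept the highest ABCG1 with etoposide, with all 4 libraries above those of the 3 other genotypes. The responses of KO and HET were lower than that of WT by the test of the difference, at -0.78 ± 0.14 (adjusted p 9.12e-05) and -0.69 ± 0.14 (adjusted p 0.00141).

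The base composition of the transcripts moved with several of these differences. Across the 34 genes, which share the same libraries and depth, the log2 change with etoposide in WT had a Pearson correlation of -0.65 with the G+C content of the longest transcript. It was -0.74 in KO, -0.56 in HET and -0.87 in HOM, and 0.87 for HOM against WT and -0.75 for HET against WT in DMSO. It was -0.79 for etoposide in HOM and 0.19 for HOM against WT in DMSO without libraries 2 to 4 of HOM with DMSO. The correlation was -0.14 for the difference between the responses of KO and WT. Across 16761 genes the same correlations were -0.12, -0.20, -0.03, -0.57, 0.62, -0.48 and -0.06. With etoposide the correlation over the 34 was -0.56 for HET against WT and -0.33 for HOM against WT. It was -0.46 for HOM against KO and 0.001 for KO against WT. For the response differences it was 0.53 for HET and -0.83 for HOM. Without libraries 2 to 4 of HOM with DMSO the last was -0.41. Such correlations are descriptions of genes, which are not independent replicates. In WT the 17 genes of lower G+C had 6 falls and 2 rises, and the 17 of higher G+C had 11 falls and no rise. A tilt, the median log2 level of genes under 45% G+C minus that of genes over 55%, was present over the whole transcriptome, with group medians of 0.90 log2 units in HET and -1.44 in HOM with DMSO, relative to the DMSO libraries of WT at -0.07. The first HOM library with DMSO was at -0.09 and the 3 others at -1.62, -1.25 and -2.65. With etoposide the group medians were 0.32 in WT, 0.59 in KO, 1.10 in HET and 0.68 in HOM.

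After a trend on G+C content and length was removed from each library, a choice made after seeing the data, all 17 falls in WT were still called, and of the 2 rises ABCA1 was kept (0.98) and STARD4 was not (0.33). In KO 9 of 11 falls and 2 of 7 rises were kept, the rises being HMGCS1 (0.59) and IDI1 (0.86). All 16 falls and the rise in HET were kept. Of the higher genes in HET against WT in DMSO, 2 of 8 were kept, IDI1 and LPIN1, and LSS was still lower (-0.60). With etoposide LSS in HET stood at -0.55 and no longer passed, and 1 of 4 higher and 1 of 2 lower genes were kept, IDI1 and ABCG1. The 6 higher and 2 lower response differences of KO against WT were all still called, among them EBP (1.21), FADS2 (0.99) and ABCA1 (-1.09). In KO against WT with etoposide 7 of 8 higher and 2 of 3 lower genes were kept. In HOM against WT with etoposide 8 of 11 higher genes and neither lower gene were kept. In HOM against WT in DMSO 1 of 10 higher and 3 of 9 lower genes were kept, and in HOM against KO 2 of 11 and 1 of 8. Of the etoposide changes in HOM 4 of 9 rises and 14 of 16 falls were kept, and of the response differences of HOM 7 of 15 upward and 1 of 8 downward. The kept counts that use HOM with DMSO come from all 4 libraries, and the correction was not run without libraries 2 to 4. Under this correction the median of all genes shifted by -0.17 in the WT response, -0.11 in KO, -0.15 in HET and -0.23 in HOM. All these shifts are downward, which makes a fall easier to keep than a rise. The share of all genes that stayed called under this correction is not given here. The kept counts therefore do not show whether the genes of the pathway held up better than other genes.

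**Figure D4:**
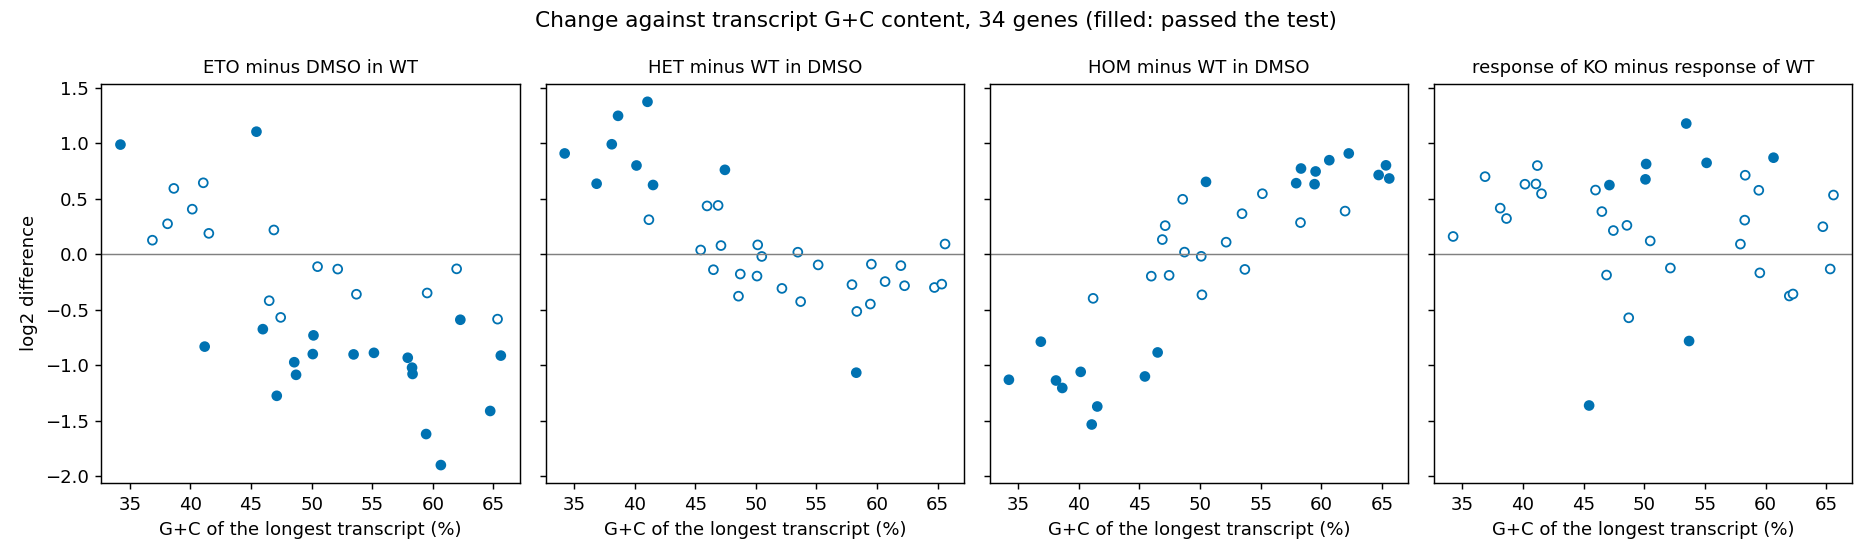
Log2 difference of the 34 genes against the G+C content of their longest transcript in 4 comparisons, with filled points for genes that passed the test. The points slope down for etoposide in WT and for HET against WT in DMSO, slope up for HOM against WT in DMSO, and show little slope for the difference between the responses of KO and WT.

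Of 90 further genes of sterol and fatty acid metabolism, 86 were tested. In WT 15 rose and 10 fell (17.4% and 11.6% of the 86, against 20.1% and 14.9% of all genes). In KO it was 16 and 7 (18.6% and 8.14%, against 18.1% and 14.5%), and in HET 16 and 6 (18.6% and 6.98%, against 17.5% and 12.7%). None of 9 genes of SREBP processing passed in WT or KO. ACSL5, which activates fatty acids, rose from 5.81 to 30.4 in WT (2.35 ± 0.46, adjusted p 9.26e-05) and also in KO (2.33 ± 0.46). ELOVL4, an elongase of very long chains, rose in WT by 1.46 ± 0.18 (adjusted p 1.29e-07). SLC25A1, which exports citrate from mitochondria, changed by -1.09 ± 0.21 in WT. ME1, a source of NADPH for fatty acid synthesis, changed by -1.28 ± 0.17 in KO.

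Between KO and WT with etoposide 11 of the 86 were higher and 9 lower (12.8% and 10.5%, against 11.7% and 15.0% of all genes). TMEM97, an endoplasmic reticulum protein that regulates sterol transport, was at 2579 in KO and 1234 in WT (1.06 ± 0.09, adjusted p 6.13e-11), and its response differed by 1.39 ± 0.12 (adjusted p 2.03e-09). CYP27A1, which makes an oxysterol, was at 33.5 in KO and 6.03 in WT (2.43 ± 0.45, adjusted p 5.98e-05). LPIN3, a relative of LPIN1, was lower in KO (-1.69 ± 0.12, adjusted p 2.38e-12), with a response difference of -1.33 ± 0.17, and the response of FADS3 differed by -1.32 ± 0.25. SLC25A20, the carnitine carrier of fatty acid oxidation, had no count in any KO library with DMSO and a mean of 59.1 in WT. With etoposide it was at 6.67 in KO and 76.0 in WT. The response differences of these further genes between KO and WT numbered 6 upward and 6 downward of 86 (6.98% each, against 7.11% and 8.13% of all genes).

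The authors' deposited table covers 6 of the 15 comparisons. By the same thresholds, the authors' deposited table called 9 of the 34 higher and 3 lower in KO against WT with etoposide, 11 and 2 in HOM against WT with etoposide, and 2 and 0 in HOM against KO with etoposide. In DMSO the authors' deposited table called 0 and 2 in KO against WT, 11 and 9 in HOM against WT and 11 and 7 in HOM against KO. The signs in the authors' deposited table matched those of the fit used here for 34 of 34 genes in 4 comparisons and for 33 of 34 in KO against WT and HOM against KO in DMSO. In the authors' deposited table ABCA1 in KO against WT with etoposide was at -2.38 (adjusted p 1.77e-17) and EBP at 1.41 (adjusted p 2.46e-47).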

How the data were processed

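Per the submitters' processing notes, the tools were kallisto and DESeq2 and the build GRCh38 (hg38); tool versions and the strand setting are not given in the sources used here. What the authors deposited is a matrix of log2-like variance-stabilized values with a floor of 4.43. They were inverted to normalized counts, whose mean equals the deposited mean signal of each gene within a relative 4.47e-14, and which times the size factor give whole reads within 0.01 for 100% of values. The authors also deposited tables of 6 comparisons with a log2 fold change, its standard error and test score, and a p-value.

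The test was limma 3.58.1 in R 4.3.3 with a mean-variance trend on log2(normalized count + 1), with all 32 libraries in 1 fit, over the 16824 genes that reached 10 normalized counts in 4 or more libraries. The pseudocount of 1 understates changes of low genes. P-values were two-sided and Benjamini-Hochberg adjusted over all genes tested, and a gene was called at an adjusted p under 0.05 and a change of at least 1.5-fold. Because the deposited unit was log2 and not counts, a count model was used only as an alternative. Lengths and G+C content are those of the longest transcript in GENCODE release 29. Alternatives comprised other scalings, filters, pseudocounts and fits, and leaving out each library. Tables were handled in Python 3.11.15 with pandas 2.3.3 and numpy 2.4.6, and the test was checked on simulated data. The simulated libraries all had the same spread, with no divergent libraries and no G+C tilt, so that check does not cover these features.

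The 34 genes, the further gene lists and the comparisons were chosen with earlier results of these data known. Values per library are given for the 3 largest called rises and falls of each response, the 2 largest of each other comparison, and SREBF1, SREBF2, INSIG1 and ABCA1. Some results are not reported here.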

Additional observations from a re-analysis of the deposited data

Results flagged for a closer look

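In 10 of the 272 sets of 4 libraries (34 genes in 8 groups) a single library lay apart from the other 3 by Dixon's criterion, which chance meets in about 1 of 20 sets. None of the 10 was in HOM with DMSO, where 3 libraries stand apart together. In HET with etoposide the outlying libraries were FDPS at 2692, CYP51A1 at 1274, INSIG1 at 496 and ACLY at 4953 normalized counts. In HOM with etoposide they were HMGCS1 at 1729 and CYP51A1 at 994. The others were SQLE at 2431 in HET with DMSO, MSMO1 at 657 and SCD at 13328 in WT with DMSO, and LPIN1 at 1211 in KO with etoposide.

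The log2 response to etoposide differed from that of WT by limma's test of the difference in 8 genes for KO. These were EBP (1.18), FADS2 (0.87), FDPS (0.82), ACAT2 (0.81), FADS1 (0.67), SCD (0.62), ABCG1 (-0.78) and ABCA1 (-1.36). For HET it was ABCG1 (-0.69).

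For HOM 23 genes differed when all DMSO libraries were used. Upward were IDI1 (2.48), SC5D (2.05), CYP51A1 (1.74), HMGCS1 (1.54), INSIG2 (1.53), MSMO1 (1.35), ELOVL6 (1.32), STARD4 (1.29), ACAT2 (1.25), SQLE (1.05), EBP (0.90), INSIG1 (0.83), SCD (0.70), FADS1 (0.67) and LPIN1 (0.59). Downward were SCAP (-1.28), FASN (-1.18), PMVK (-0.90), TM7SF2 (-0.85), SREBF2 (-0.77), ACACA (-0.61), FDFT1 (-0.60) and NSDHL (-0.60). The number called without libraries 2 to 4 of HOM with DMSO was smaller, and it is given above beside the share of all genes.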

How the results depend on the processing

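The comparisons with HOM in DMSO depended most on which libraries were used; of 192 called values of the 34 genes over all comparisons, 72 were called under every alternative. In 5 settings (pseudocounts of 0.5 and 5, a filter at 50 counts, no filter, voom on the recovered counts) at most 4 of 293 values moved across the threshold each. On the recovered counts voom called 6195 genes for etoposide in WT, against 5890. Leaving out 1 library at a time gave 18 to 20 called genes for etoposide in WT, 15 to 18 in KO, 15 to 20 in HET and 24 to 27 in HOM. The range in DMSO was 0 to 2 for KO against WT, 7 to 10 for HET against WT, 11 to 22 for HOM against WT and 11 to 20 for HOM against KO. With etoposide it was 9 to 11 for KO, 5 to 7 for HET and 10 to 12 for HOM against WT, and 2 for HOM against KO. Response differences gave 8 to 10 for KO, 1 for HET and 19 to 24 for HOM. Without libraries 2 to 4 of HOM with DMSO, the counts were 0 for HOM against WT and 1 for HOM against KO in DMSO and 8 for the response of HOM. Without replicate 4 alone the first 2 were 11 and 11. The other comparisons share the spread of these libraries. Without the 3, the genes called higher and lower were 4 and 18 for etoposide in WT, 10 and 3 for KO and 11 and 3 for HOM against WT with etoposide, 10 and 2 for the response of KO and 0 and 2 for that of HET.

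With the G+C and length trend removed, an alternative chosen, like voom, after seeing the data, with or without the replicate block, the counts became 11 for KO with etoposide, 4 for HET, 5 for HOM against WT and 5 for HOM against KO in DMSO, 3 for HET with etoposide and 8 for the response of HOM. Total-count scaling gave 11 for etoposide in HET, 0 for KO against WT in DMSO and 12 for HET against WT with etoposide. For KO against WT in DMSO the count was also 0 with no filter, with the deposited values or with the compared groups alone, and 1 with array weights. With no fold minimum the counts were 17 for HET against WT in DMSO, 17 for KO, 16 for HET against WT and 5 for HOM against KO with etoposide. Quantile normalization gave 10 for HOM against WT and 8 for HOM against KO in DMSO and 14 for the response of KO; the compared groups alone gave 0 and 5 for the first 2, and array weights gave 13 and 2 for the responses of KO and HET.

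The following values changed sign, and the cause was not tested. In the etoposide change of HOM, total-count scaling gave ABCG1 0.17, FDPS 0.096, NSDHL 0.30 and TM7SF2 0.020, quantile normalization FDPS 0.053 and the removed trend INSIG2 -0.069. With the trend removed, with or without the block, HET against WT in DMSO had INSIG2 at -0.18 and STARD4 at -0.032, HOM against WT INSIG2 at 0.099, and HOM against KO HMGCS1 at 0.052, INSIG2 at 0.16 and STARD4 at 0.38. Without libraries 2 to 4, HOM against WT had FASN at -0.12, INSIG2 at 0.12, MVD at -0.039, NSDHL at -0.0088 and SC5D at 0.15. HOM against KO then had FASN at -0.029, INSIG2 at 0.022, MSMO1 at 0.083 and STARD4 at 0.29, and the response difference of HOM had NSDHL at 0.057. That difference also gave ACACA 0.18, FDFT1 0.19, NSDHL 0.18 and SREBF2 0.015 under total-count scaling and SREBF2 0.00012 under quantile normalization. The median of all genes moved by up to 0.97 under total-count scaling.

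With the replicate block 291 of 293 values kept their side of the threshold and 2 passed it anew. No pair of groups had correlated deviations in all 4 equal numbers, so the numbers were not taken to pair libraries.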
